A study of Mus musculus with 22 samples.

Results

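The regions described here carried H3K27me3 in all 5 cell types of a mouse neocortex series, were short, and had no H3K4me3 in any of them. They were found by joining H3K27me3 peaks of the 5 deposited lists that shared at least 1 bp. A joined region was kept when it lay on an autosome, held a peak of every list, held no single peak of 10000 bp or more, and overlapped no H3K4me3 peak of any list. Of 13700 joined H3K27me3 regions, 9836 were autosomal and 2205 of these had a peak in all 5 lists; 308 of these met the whole rule. The rest of the 2205 comprised 1458 regions of the same size class that overlapped H3K4me3 and 439 with a peak of 10000 bp or more, of which 82 lacked H3K4me3. The regions were selected on measured values, namely presence in every H3K27me3 list, peak width and absence of H3K4me3, so those 3 properties are given as a description and support nothing.

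All cells came from C57BL/6JOlaHsd mouse embryos, and the labels give no mutation or treatment. One cell type, neuroepithelial cells (NEC), from which the later cortical progenitors descend, was taken at embryonic day 9.5 (E9.5). The others were taken at E14.5. They were the apical radial glia, progenitors at the ventricle, in a proliferative (aRG-P) and a neurogenic (aRG-N) population, the basal radial glia (bRG), which divide away from the ventricle, and neurons (N). Each cell type had 2 samples per mark, which for H3K27me3 of aRG-N were technical replicates per the labels. Each peak list was called on combined samples, so no value has a spread between replicates, no difference was tested, and NEC differed from the other cell types in age as well as in kind. Per the peak names, the aRG-P H3K27me3 list left out a set, so it may not rest on all of its samples. Read depth is unknown. The purity of the cell types could not be checked here, because no gene positions of build mm9 were used; regions are given by mm9 position, 1-based, without gene names or sequence.

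H3K27me3 is the mark of the Polycomb group proteins, which keep developmental genes silent in cells that do not use them. H3K4me3 marks promoters that are active or poised, and in progenitors many Polycomb targets carry both marks, a state called bivalent. In the neocortex, loss of Polycomb activity from progenitors is known to alter the timing of neuron production. Regions with H3K27me3 and no H3K4me3 are the side of the Polycomb landscape without the promoter mark.

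In the H3K27me3 lists the regions accounted for 317 of 5798 autosomal peaks in NEC (5.47%), 332 of 4634 aRG-P peaks (7.16%), 323 of 6165 aRG-N peaks (5.24%), 323 of 3387 bRG peaks (9.54%) and 325 of 5448 N peaks (5.97%). The share was highest in bRG, whose list was the shortest. The regions spanned 1525 kb in all. The mark covered 979 kb of this in NEC, 892 kb in aRG-P, 1214 kb in aRG-N, 649 kb in bRG and 1133 kb in N. Most were single blocks. The NEC list split 9 of the 308 into several peaks, aRG-P 22, aRG-N 15, bRG 12 and N 17.

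Cover was widest in aRG-N and N and narrowest in bRG. Per the peak names, the N list used reads extended by 200 bp and the aRG-P list left out a set. Whether this changed the widths and the ratios between lists was not tested. The median covered width was 2895 bp in NEC, 2600 bp in aRG-P, 3452 bp in aRG-N, 1777 bp in bRG and 3447 bp in N. The quartiles were 1835 and 4199 bp in NEC, 1019 and 2904 bp in bRG, and 2402 and 4811 bp in N, so the distributions overlapped widely. Joined regions had a median width of 4584 bp, with quartiles at 3425 and 6155 bp. The 1458 regions with H3K4me3 were somewhat wider, with a joined median of 5084 bp. A wider region has more bases that an H3K4me3 peak can overlap, so the rule may itself favour narrower regions. Their covered medians had the same order of lists, at 3562 bp in NEC, 2873 bp in aRG-P, 3984 bp in aRG-N, 2340 bp in bRG and 3772 bp in N. The order was therefore not confined to regions without H3K4me3.

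**Figure D1:**
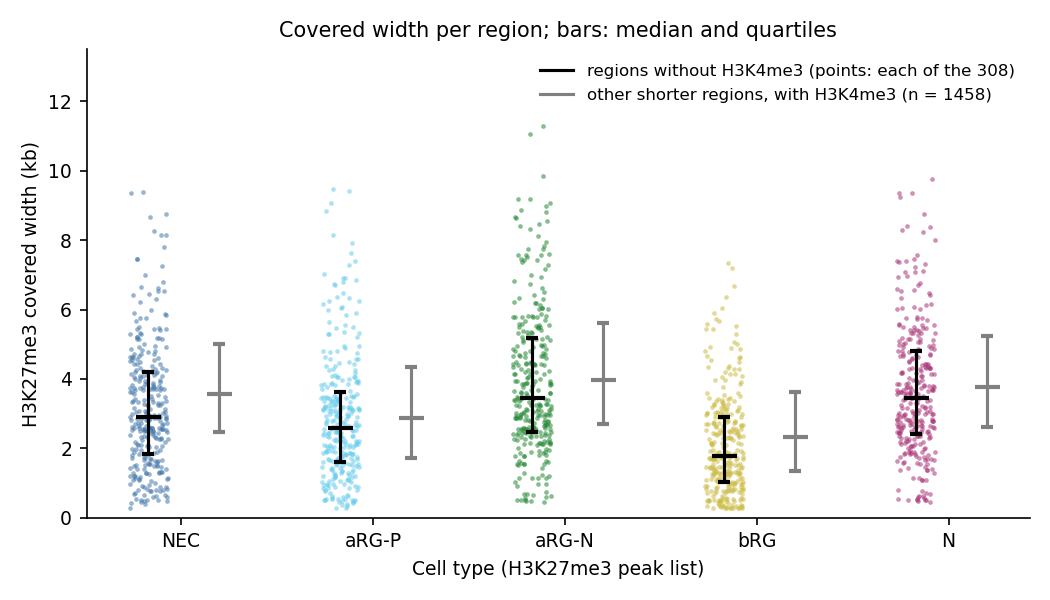
Bases covered by H3K27me3 peaks in each region (kb) in the 5 lists; points are the 308 regions without H3K4me3, black bars their median and quartiles, and grey bars the same for the 1458 shorter regions with H3K4me3. Median cover of the 308 lies between 1777 bp in bRG and 3452 bp in aRG-N.

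The widest cover of a region was in aRG-N at 116 of the 308 (37.7%), in N at 86 (27.9%), in NEC at 75 (24.4%, exact Clopper-Pearson 95% interval 19.7 to 29.5%), in aRG-P at 28 (9.09%) and in bRG at 3 (0.974%). Such intervals cover counting error only. Over all 2205 autosomal regions found in every list, the share with the widest cover in NEC was 24.5% and in aRG-N 39.3%. The aRG-P list was widest at 5.62% of these 2205, which is below its share of the 308. The bRG share of the 2205 was 1.09% and the N share 29.5%. The authors' first score of each peak, ranked among the autosomal peaks of its own list, had a median percentile of 67.1 for the NEC list, 62.8 for aRG-P, 74.7 for aRG-N, 48.6 for bRG and 68.4 for N. The 1458 regions with H3K4me3 stood at 73.5 for NEC, 66.7 for aRG-P, 77.6 for aRG-N, 57.2 for bRG and 75.0 for N. Regions without H3K4me3 thus ranked lower in each of the 5 lists, though a percentile cannot be compared between lists of unlike length. Whether the lower rank goes with their smaller width was not tested.

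Presence in every list did not mean that peaks of all lists covered the same bases. A base outside a peak is not thereby known to lack the mark. In the median region, bases covered in all 5 lists made up 30.4% of the joined width (quartiles 13.3 and 47.0%), or 1207 bp. At 60 regions (19.5%, against 31.2% of all 2205) this common part reached 50% or more of the joined width. At 31 regions (10.1%, against 4.90% of all 2205) no base was covered in all 5, and the lists were linked only through one another. Among the 1458 regions with H3K4me3 the median common part was 35.4% and 74 regions (5.08%) had no common base. Among the 439 longer regions these values were 55.7% and 3 regions. Over all 2205 the median common part was 37.7%.

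Cover was nested towards bRG. Of the bases bRG covered in these regions, 94.95% were also covered in N, 93.95% in aRG-N, 83.3% in aRG-P and 83.4% in NEC. Nesting was similar in the 1458 regions with H3K4me3, at 94.8% in N and 95.5% in aRG-N, and in the 439 longer ones, at 98.9% and 98.6%. In the opposite direction, over the 308, bRG covered 54.4% of the N bases and 50.3% of the aRG-N bases. The pair with the most bases in common was N and aRG-N, which shared 70.6% of the bases covered by either. NEC shared 56.0% with aRG-P, 59.6% with aRG-N, 49.8% with bRG and 58.2% with N. Across the 308 regions, covered widths in the E14.5 lists ranked alike, with Spearman correlations from 0.56 (aRG-N and bRG) to 0.75 (aRG-P and aRG-N), and less so with NEC, from 0.39 (N) to 0.47 (bRG). The regions share lists and calling steps, so these correlations only describe them.

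**Figure D2:**
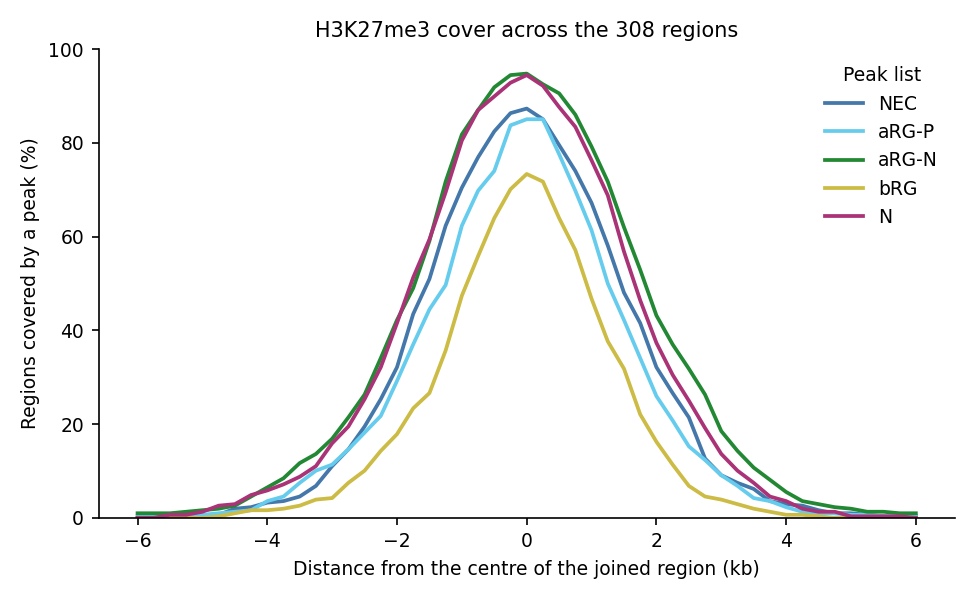
Percent of the 308 regions in which a peak of each H3K27me3 list covers a point, against distance from the centre of the joined region (kb). The curves of aRG-N and N run highest and that of bRG lowest; 2 kb right of the centre aRG-N covers 43.2% of the regions, N 37.3%, NEC 32.1%, aRG-P 26.0% and bRG 16.2%.

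Relative to NEC, the E14.5 lists covered more bases at some regions and fewer at others. The median of the 4 E14.5 covered widths, divided by the NEC covered width, had a median of 0.957 over the 308 regions, with quartiles at 0.754 and 1.30 and extremes at 0.168 and 8.30. Over all 2205 regions the median was 0.977. In 52 regions (16.9%) every E14.5 list covered more than NEC, beside 20.1% of all 2205. In 75 (24.4%) every E14.5 list covered less than NEC, beside 24.5%. These shares lay close to those of the 2205.

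At least 2-fold differences from NEC were counted for each E14.5 list; the 4 ratios share the NEC list and are not independent. Cover in aRG-P was at least 2-fold higher at 35 regions (11.4%, background 7.17% of the 2205) and at least 2-fold lower at 52 (16.9%, background 17.1%). For aRG-N the counts were 59 higher (19.2%, background 13.7%) and 14 lower (4.55%, background 4.58%). For bRG they were 14 higher (4.55%, background 4.13%) and 101 lower (32.8%, background 26.6%). For N they were 57 higher (18.5%, background 12.3%) and 20 lower (6.49%, background 5.99%). More of the regions than of the background were at least 2-fold higher in aRG-P, aRG-N and N. The medians of these ratios were close to the background medians, at 0.852 beside 0.897, 1.15 beside 1.13 and 1.07 beside 1.10. The higher shares were not confined to these regions. Among the 439 longer regions they were 10.3% for aRG-P, 18.7% for aRG-N and 15.9% for N. Among the 1458 shorter regions with H3K4me3 they were lower, at 5.35%, 11.0% and 9.95%.

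Among the 5 E14.5 pairs compared, the 3 with bRG in them had the most spread ratios. Cover in bRG was at least 2-fold lower than in aRG-P at 81 regions (26.3%, background 14.1%), with 14 higher (background 3.90%). It was at least 2-fold lower than in aRG-N at 126 (40.9%, background 31.2%), with 1 higher (background 0.635%). N was at least 2-fold higher than bRG at 121 (39.3%, background 27.7%) and lower at 2 (background 0.68%). Relative to aRG-P, aRG-N was at least 2-fold higher at 58 (18.8%, background 16.3%) and lower at 2 (background 0.635%). N and aRG-N were the closest of these pairs: N was at least 2-fold higher at 13 (4.22%, background 3.22%) and lower at 20 (6.49%, background 5.17%), with a median ratio of 0.963. The bRG list was also the shortest, at 3476 peaks, and less H3K27me3 in bRG cannot be told apart from a less sensitive list.

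**Figure D3:**
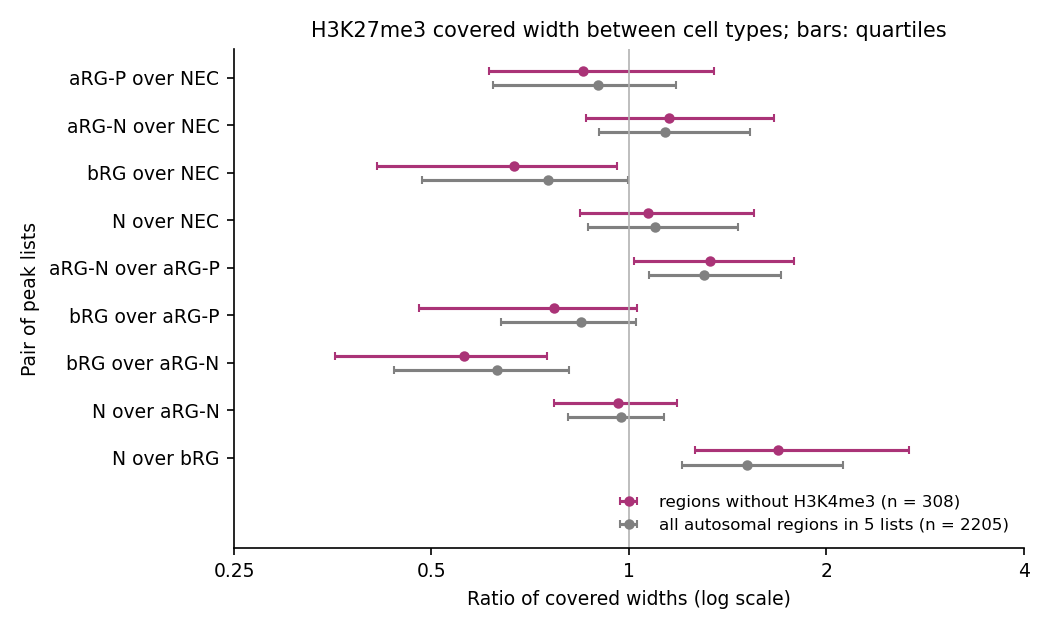
Ratio of H3K27me3 covered widths between pairs of lists on a log scale; points are medians and bars quartiles over the 308 regions (purple) and over all 2205 autosomal regions found in the 5 lists (grey). Medians of the 308 run from 0.560 for bRG over aRG-N to 1.69 for N over bRG.

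Individual regions show how far the cover could differ. The highest ratio of median E14.5 to NEC cover, 8.30, was at chr10:61397985-61400761, where NEC had 292 bp, aRG-P 2443 bp, aRG-N 2404 bp, bRG 962 bp and N 2454 bp. The short NEC peak lay near the right end of the wider E14.5 blocks and did not touch the bRG peak. Its 292 bp was the lowest NEC cover found in any of the 2205 regions, so the ratio rests on an extreme value. At chr17:25606480-25612698 the cover was 438 bp in NEC, 2233 bp in aRG-P, 4675 bp in aRG-N, 1447 bp in bRG and 6033 bp in N. At chr19:22661982-22674613 it was 1054 bp in NEC, 6897 bp in aRG-P, 11286 bp in aRG-N, 1774 bp in bRG and 9239 bp in N. In all 3 of these the bRG cover was the narrowest of the E14.5 lists but still above NEC.

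The lowest of these ratios, 0.168, was at chr10:42737504-42744026, where a NEC block of 6523 bp was set against 910 bp in aRG-P, 2388 bp in aRG-N, 1282 bp in bRG and 574 bp in N. At chr7:19542152-19551534 the cover was 9383 bp in NEC, 1688 bp in aRG-P, 2104 bp in aRG-N, 1157 bp in bRG and 2842 bp in N. At chr2:130458976-130467912 it was 8677 bp in NEC, 1304 bp in aRG-P, 2887 bp in aRG-N, 1462 bp in bRG and 3672 bp in N. This last region was also the one closest to H3K4me3, with a peak 68 to 186 bp away in the E14.5 lists and 38 bp away in NEC.

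By the ratio of N to aRG-N cover, the highest value after a chromosome 9 region described below was 4.54, at chr15:79434125-79436487, with 2363 bp in N against 521 bp in aRG-N. Next, at 4.26, came chr2:58478132-58481058, with 2919 bp in N against 686 bp in aRG-N. In both, N had the widest cover of the 5 lists. The lowest ratio, 0.0605, was at chr4:119702322-119709760, with 450 bp in N against 7439 bp in aRG-N. NEC covered 5834 bp there, aRG-P 3888 bp and bRG 1709 bp, so N had the narrowest cover of the 5. The 450 bp was also the lowest N cover of any of the 308 regions, so this ratio too rests on an extreme value. At chr1:140727838-140731056 N covered 550 bp against 3002 bp in aRG-N, and at chr19:5050519-5053571 520 bp against 2564 bp.

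**Figure D4:**
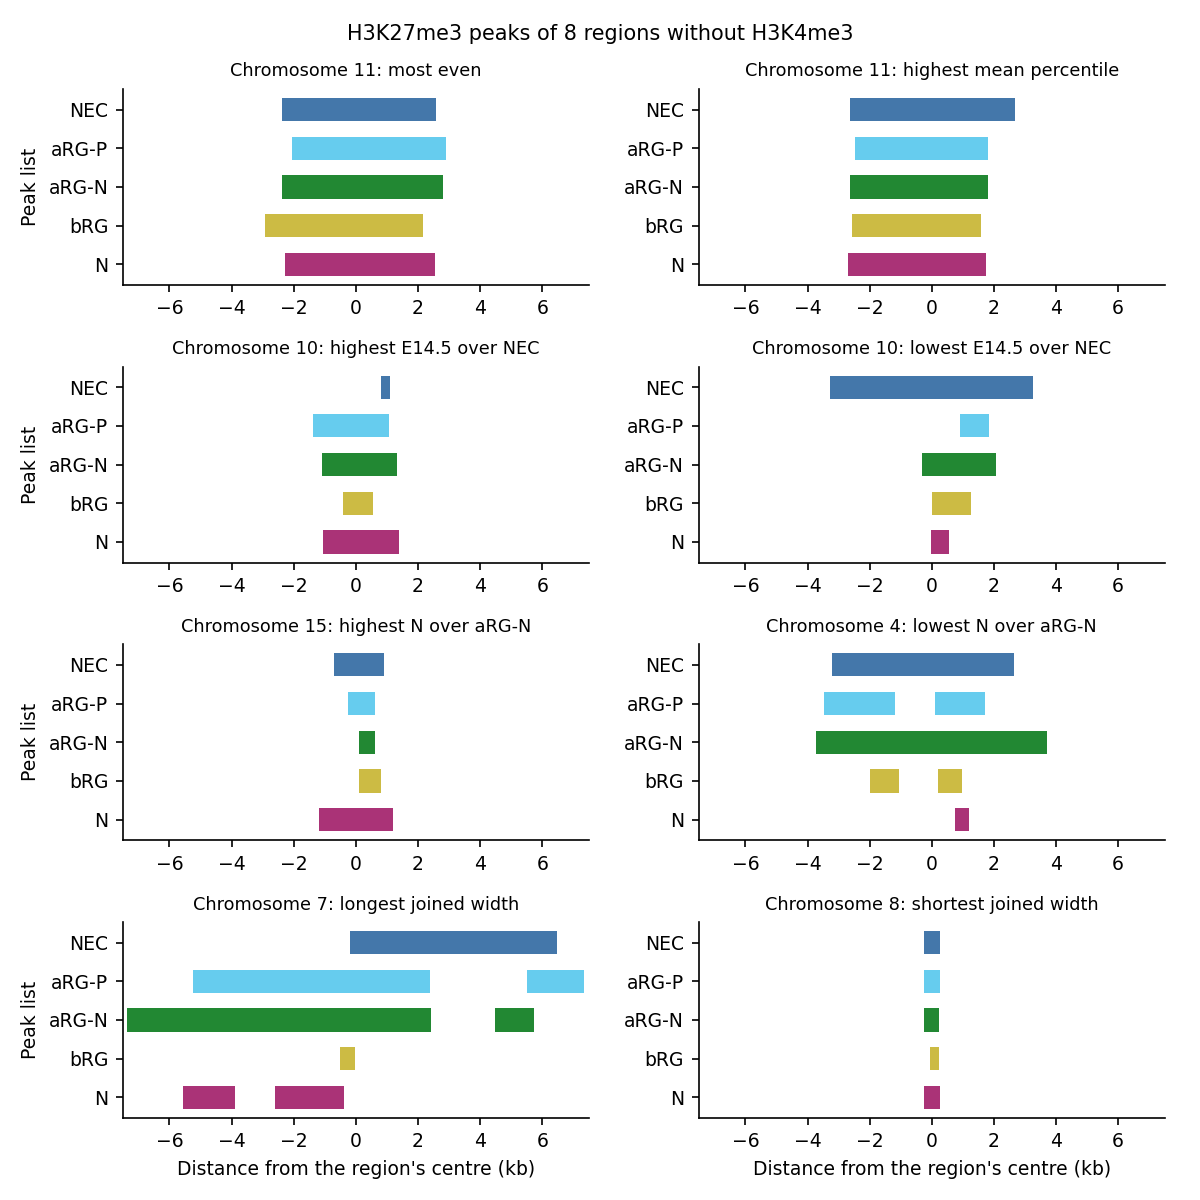
H3K27me3 peaks (bars) of the 5 lists at 8 regions named in the text, drawn to scale as distance from the centre of each joined region in kb. The upper panels hold regions covered alike in all lists; below are a region of narrow NEC cover (292 bp), one of wide NEC cover (6523 bp), one wider in N than in aRG-N, one narrower, the longest region (14719 bp) and the shortest (516 bp).

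The ratio of widest to narrowest cover had a median of 2.58 (quartiles 1.85 and 4.73), and 94 regions (30.5%) kept all 5 lists within 2-fold. Among the 1458 regions with H3K4me3 the median was 2.28 and 39.6% stayed within 2-fold. An evenly covered region was chr11:83254082-83259897, with 4956 bp in NEC, 4948 bp in aRG-P, 5156 bp in aRG-N, 5061 bp in bRG and 4811 bp in N. The most uneven was also the longest, chr7:150515913-150530631, a joined region of 14719 bp with 6658 bp in NEC, 9488 bp in aRG-P, 11052 bp in aRG-N, 489 bp in bRG and 3913 bp in N. It lay 53 bp from a peak of 10000 bp or more, and no base in it was covered in all 5 lists. In the other 4 of the 5 longest regions the widest cover was 2.02 to 10.7 times the narrowest. At the lowest of them, chr2:164770040-164782698, the cover was 8154 bp in NEC, 4882 bp in aRG-P, 9840 bp in aRG-N, 5570 bp in bRG and 7320 bp in N.

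The limit of 10000 bp fell within a continuous range of sizes. Just inside it, the longest single peak measured 9794 bp in the chromosome 7 region above, 9773 bp at chr17:32527404-32537185 and 9410 bp at chr11:96006080-96016561. Just outside it, regions without H3K4me3 had longest peaks of 10015 bp at chr1:91884644-91896329, 10173 bp at chr1:167761831-167778144 and 10299 bp at chr9:21044709-21056557. The H3K4me3 rule left out more. Of the 1458 shorter regions that overlapped H3K4me3, 742 (50.9%) did so in all 5 lists and 335 (23.0%) in NEC alone, against 1 in aRG-N alone and 5 in N alone. The 335 were somewhat wider than the 308, with a joined median of 4903 bp and wider median cover in each of the 5 lists, from 2377 bp in bRG to 4096 bp in aRG-N. Their median common part was 39.5% and their median ratio of E14.5 to NEC cover 1.05. Where 1 list alone kept a region out, it was therefore NEC at 335 of 341 regions. The E14.5 H3K4me3 lists held 14801 to 15982 peaks and the NEC list 17867. In bases the gap was larger, with 20.3 Mb covered in the NEC list against 11.8 to 15.6 Mb in the E14.5 lists. Whether the 335 go with this wider NEC cover was not tested.

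The nearest H3K4me3 peak of any list lay at a median distance of 19360 bp, within 5000 bp of 46 regions (14.9%, interval 11.1 to 19.4%) and within 20000 bp of 159 (51.6%); 30 regions were over 100000 bp away. Of the 46, 32 had H3K4me3 within 5000 bp in all 5 lists and 14 in some. All 46 had it in NEC, and 8 in NEC alone. By list, the median distance was 19474 bp to a NEC peak and 27442 bp to an aRG-P peak, and 25988, 28332 and 26604 bp to a peak of aRG-N, bRG and N. The rule forbids an overlap, so the short distances are bounded by it. The NEC list also held the most H3K4me3 peaks and covered the most bases of the 5 lists.

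**Figure D5:**
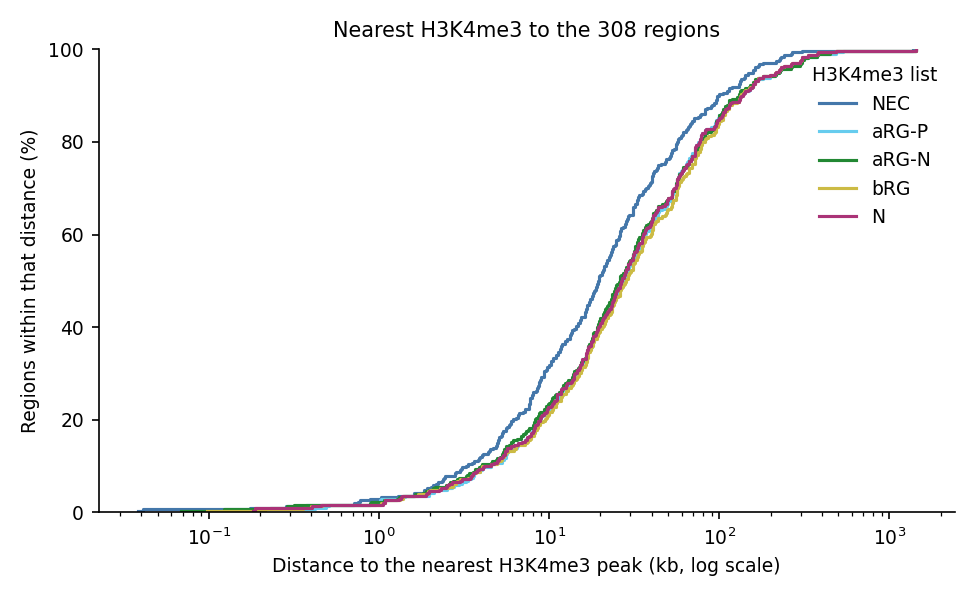
Cumulative percent of the 308 regions by distance to the nearest H3K4me3 peak of each list (kb, log scale). The NEC curve lies left of the 4 E14.5 curves over most of its length, with 39.6 to 41.9% of the regions within 20000 bp in the E14.5 lists against 51.3% in NEC.

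A region with H3K4me3 beside it in every cell type was chr11:118947800-118953168, whose nearest peak was 122 to 213 bp away in the 5 lists. Its H3K27me3 cover was 5324 bp in NEC, 4298 bp in aRG-P, 4445 bp in aRG-N, 4142 bp in bRG and 4431 bp in N, and its score stood at the 97.3th to 99.5th percentile of each list. At the other end, chr16:7035779-7041874 lay 1383 kb from any H3K4me3 peak, with 4620 bp covered in NEC, 3912 bp in aRG-P, 5821 bp in aRG-N, 971 bp in bRG and 3613 bp in N. The next farthest, chr12:118770245-118775449, was 306 kb away and had 796 bp in NEC, 2457 bp in aRG-P, 4761 bp in aRG-N, 2332 bp in bRG and 4142 bp in N.

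Other H3K27me3 was nearer than for the shorter regions with H3K4me3 and lay within 5000 bp about as often as for the longer regions. The next joined H3K27me3 region, of any list, was a median 9140 bp away, against 42112 bp for the 1458 regions with H3K4me3, 13280 bp for the 439 longer ones and 29111 bp for all 2205. It lay within 5000 bp of 120 regions (39.0%), against 18.5% of the 1458, 38.3% of the 439 and 25.3% of the 2205. For 25 regions (8.12%) the next one was over 100000 bp away, against 31.3% of the 1458 and 26.0% of all 2205. The 194 neighbours within 20000 bp were 1916 bp wide at the median, and the neighbours of the 1458 were 1423 bp wide. Of them, 88 (45.4%) were found in 1 list alone, against 55.8%, and 54 (27.8%) in all 5, against 19.7%. H3K4me3 overlapped 79 of them (40.7%), against 24.1% of the neighbours of the 1458. A peak of 10000 bp or more lay within 20000 bp of 33 regions (10.7%), against 2.61% of the 1458. None of these differences was tested, since regions are not replicates. The H3K27me3 lists hold peaks of transcripts per their headers and lack 26.5 to 36.6% of their peak numbers. Nearer H3K27me3 may therefore be missing from them.

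The regions were spread over all 19 autosomes and unevenly. Chromosome 11 held 50 (16.2%), chromosome 2 held 35, and chromosomes 4 and 7 held 29 each. Among the regions of this size class found in every list, those without H3K4me3 made up 27.5% on chromosome 11 (50 of 182, interval 21.1 to 34.6%) and 17.4% over all autosomes. On chromosome 14 they were 2 of 58 (3.45%, interval 0.420 to 11.9%), on chromosome 13 4 of 61 (6.56%) and on chromosome 18 4 of 52 (7.69%). Most stood alone at this scale: 260 had no other such region within 50000 bp, and 48 formed 23 groups. The largest groups held 3, on chromosome 8 from 126099153 to 126136996 and on chromosome 9 from 2999867 to 3032729. A pair on chromosome 2 from 31312525 to 31361153 came next in chromosome order; this stretch also held 2 other regions found in all 5 lists and 1 H3K4me3 peak, in NEC.

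A few regions stood apart in shape. The 2 groups of 3, with 3 further regions of less than 1000 bp, made 9 regions, singled out after their values were seen. Their joined widths ran from 516 to 3130 bp with a median of 627 bp, against 1259 to 14719 bp and a median of 4641 bp in the other 299. The mean percentile of their score over the 5 whole lists had a median of 98.5, against 65.3. It exceeded 95 in 7 of the 9, against 1 of the 299. Their cover was also more even, with a median ratio of widest to narrowest of 1.29 against 2.61. The lowest cover of any list among the 308 was 289 bp, so a region under 1000 bp cannot reach a high ratio. The evenness therefore follows in part from the choice. Width was part of the choice, and not all 9 shared the other traits. At chr8:126136481-126136996 the mean percentile was 73.6, and at chr8:126124225-126125177 the widest cover was 3.23 times the narrowest.

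Among these, chr2:5300099-5300624 had 520 bp in NEC, 522 bp in aRG-P, 513 bp in aRG-N, 491 bp in bRG and 509 bp in N. At chr5:147072331-147073138 the cover was 773 bp in NEC, 806 bp in aRG-P, 748 bp in aRG-N, 752 bp in bRG and 624 bp in N. At chr8:126099153-126099779, with the highest mean percentile of all 308 (99.8), it was 627 bp in NEC, 536 bp in aRG-P, 614 bp in aRG-N, 527 bp in bRG and 596 bp in N. The chromosome 9 group lay at the start of that chromosome's assembled sequence, next to the centromere. One of its regions, chr9:3025271-3027408, gave the largest ratio of N to aRG-N among the 308, with 2116 bp in N against 463 bp in aRG-N. NEC covered 2115 bp there, aRG-P 2138 bp and bRG 2107 bp. The 463 bp was the lowest aRG-N cover found in any of the 2205 regions, so this ratio rests on an extreme value. The only H3K4me3 peak in this stretch, in NEC, had the lowest fold enrichment of the NEC list, 1.55. Whether these 9 regions hold repeated sequence was not tested. Without them the 299 others had a median joined width of 4641 bp, a median ratio of E14.5 to NEC cover of 0.956 and a common part of 29.5%.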

How the data were processed

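Per the labels' protocols, a LowCell kit was used for immunoprecipitation and a MicroPlex kit for the libraries. Build mm9 and the tools MACS2, bedtools and Bowtie 1.0.0 are named in the submitters' processing notes. The authors deposited 1 peak list per cell type and mark, called on combined samples per the peak names, which also show that the aRG-P H3K27me3 list left out a set and that the N H3K27me3 list used reads extended by 200 bp. Per the file headers, lists hold peaks of all transcripts, and 2 H3K4me3 headers add a window of 2000 bp, so regions away from transcripts are not covered. Gaps in the deposited peak numbers amounted to 26.5 to 36.6% in the H3K27me3 lists and 8.63 to 17.8% in the H3K4me3 lists, on which every absence of H3K4me3 and distance to it rests. For H3K4me3 the authors' fold enrichment (a ratio) and −log10 q were used. The deposited H3K27me3 column is called a score, since its meaning could not be settled, and served only to rank or cut peaks within a list. Input samples were not used.

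Peaks were joined and compared in pandas 2.3.3 with scipy 1.17.1 and numpy 2.4.6 under Python 3.11.15; figures used matplotlib 3.10.9. Covered width is the sum of a list's peak widths in a region. Regions and comparisons were chosen with earlier results of these data known. Named regions were extremes of width, score, ratios and distance to H3K4me3, those beside the width limit, and the largest groups, ties going by chromosome and start. In copies of the deposited lists, 200 regions were planted, of which 50 met the rule. Of the planted regions 50 were then called, though only this count was compared. Alternatives were a joining gap, a 50% cover, a 5000 bp margin or −log10 q of at least 5 for H3K4me3, shorter lists, other width limits and fewer lists. No gene names or sequences are given, since the reference tables are of GRCm38.p6.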

Additional observations from a re-analysis of the deposited data

How the results depend on the processing

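Under 11 alternatives, 63 values were obtained, of which 49 stayed within the interval of the value reported (counts: within 1.5 times) and 14 did not. With every list required to cover at least 50% of the joined region, 85 regions remained, the part common to all lists rose to 55.7%, and 23.5% lay within 5000 bp of H3K4me3; the first 2 follow from that rule itself. With every peak below 5000 bp, 190 regions remained, their median width was 3672 bp and the ratio of E14.5 to NEC cover 0.893. With no upper limit these were 390 regions, 5351 bp and 1.02. The ratio also passed 1 without the bRG list, at 1.01. The interval of the value reported, 0.936 to 1.01, includes 1. Intervals of medians were 95% intervals taken from the ranked values of the regions. They count regions, which are not replicates, so they served only to sort the alternatives and test no difference between cell types. With the lists cut to the shortest, NEC was widest at 29.7% and the common part was 40.1%; with the weakest 25% of each list removed it was 38.0%. Without the bRG list the median width was 4098 bp and the part common to the other 4 lists 35.3%. Joining across gaps of up to 3000 bp left 10.8% within 5000 bp of H3K4me3. The number of regions was 426 without bRG and 448 without NEC. With no H3K4me3 allowed within 5000 bp, 262 regions remained and the share within that distance could not be given; without NEC the values that need it could not be given. The alternative without the 9 narrow or chromosome 9 regions was added after seeing the data. No paired analysis was possible because each list combines its samples. Unknown depth limits every width.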
